A study of Homo sapiens with 6 samples.

Results

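The 9 genes described here encode RNA-binding proteins that regulate splicing and messenger RNA stability: KHDRBS1, which encodes Sam68, and SRSF1, U2AF2, NONO, PTBP1, PTBP2, ELAVL1, HNRNPC and PCBP1. They were taken by name, with earlier results of these data known, and all 9 are among the 1944 genes of the gene table. SRSF1, PTBP2 and PCBP1 also have sites in the polyadenylation site table, 5 of its 4903 sites. All 6 libraries came from LNCaP, a human prostate cancer line that responds to androgen. In the siSAM68 group (2 libraries) small interfering RNA (siRNA) against Sam68 was used, in the siXRN2 group (2 libraries) siRNA against XRN2, a nuclear 5′-to-3′ exonuclease that acts in transcription termination, and in the siCTRL group (2 libraries) the scrambled siRNA named siSCR. The knockdown cells were transfected repeatedly with 50 nM siRNA over 48 hours. The same dose and time are listed for the siCTRL libraries. Silencing by siRNA lowers a transcript without removing the gene, and a single cell line was used. RNA was profiled by 3′READS, which sequences the last stretch of polyadenylated transcripts and so counts 1 end per molecule and shows where it was cleaved. The labels call the 2 libraries of a group biological replicates.

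Splicing regulators bind short motifs in the precursor RNA and steer the choice of splice sites. Many of them also act on the 3′ end, where they raise or lower the use of competing polyadenylation signals, and in the cytoplasm, where they set how long a message lasts. Sam68 belongs to the STAR family, binds A- and U-rich RNA and is known in prostate cancer cells for its part in alternative splicing and polyadenylation. SR proteins such as SRSF1 bind exonic enhancers, while hnRNP proteins such as PTBP1 and HNRNPC often oppose them. Several of these regulators control their own transcripts through alternative splicing and 3′ UTR processing.

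Reads in the listed genes, recovered from the smallest steps of the deposited values, numbered 674072 and 788203 in siSAM68, 597911 and 1599559 in siXRN2, and 244708 and 447363 in siCTRL. The siCTRL libraries were thus the shallowest. Replicates correlated over genes, which are not independent, with Pearson's r of 0.984 in siSAM68, 0.973 in siXRN2 and 0.969 in siCTRL. Of 12 luminal prostate markers 9 were listed, summing to between 2214 and 3246 RPM (reads normalised to sequencing depth) per library. Here and below, RPM values are rescaled so that the libraries of a group have the same total over the listed genes. No basal, stromal, endothelial, immune or neuroendocrine marker searched for was listed. XRN2 is not a gene of the table, so the depth of its knockdown was not analysed here. Both tables are lists the authors had selected: for 67.3% of the genes and 81.1% of the sites, the score in the authors' deposited table reaches 1.3 in either direction in some comparison. A high share of changed genes is therefore built into the lists, and p-values adjusted over them can understate the error.

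The listed sites of SRSF1, PTBP2 and PCBP1 that have an annotated polyadenylation signal are shown here by the bases that follow it. Their use is described further on. These sites are the 2 listed ones of PTBP2, the middle site of SRSF1 and the first site of PCBP1. Each run is given 5′ to 3′ on the transcript strand and starts at the signal named in the site table, which is in capitals. The bases come from the GENCODE v29 transcript of each gene and the coordinates are GRCh38.
SRSF1 middle site, chr17:58003486-58003515, minus strand: AATAAAcattttttaaaaaactatgcatgg
PTBP2 first site, chr1:96814541-96814570, plus strand: AATAAAaacatggctcagaatctacaggtc
PTBP2 middle site, chr1:96814770-96814793, plus strand: ATTAAAaattaattttctaacaaa
PCBP1 first site, chr2:70089099-70089128, plus strand: AATAAAtttcagtttagttctgtaatgtca

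AATAAA is the canonical signal and ATTAAA its most common variant. The authors gave AATAAA to 53.5% and ATTAAA to 16.8% of all listed sites. AATAAA, searched on the transcript strand only, was found once in the SRSF1 and once in the PCBP1 transcript. In PTBP2, with 3 copies of each signal in its 3027-base transcript, the pair shown was the one whose spacing of 229 bases was close to the 233 bases between the listed sites. The ATTAAA of the PTBP2 middle site lies 24 bases before the end of that transcript. The other listed site of SRSF1, its first, has no signal in the authors' annotation, as have 6.67% of all listed sites, so no sequence is shown for it. Site types are the authors' codes F and M, read as first and middle among the several sites of a 3′ UTR.

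KHDRBS1 checks the label of the Sam68 knockdown. It was at 53.8 and 27.5 RPM in siSAM68, 895 and 567 RPM in siXRN2, and 601 and 741 RPM in siCTRL. Both siSAM68 libraries lay far below the other 4, while siXRN2 and siCTRL overlapped. Sam68 RNA fell in siSAM68, where the KHDRBS1 mean was 16.5-fold lower than in siCTRL. On the log2(RPM + 1) scale the change was -4.08 (SE 0.28, adjusted p = 7.88e-07, limma). It was also lower in siSAM68 than in siXRN2, by -4.17 on the same scale (SE 0.28, adjusted p = 5.75e-07). Between siXRN2 and siCTRL the log2 difference was 0.09 with a 95% interval of -0.50 to 0.69 (adjusted p = 0.821). The reads behind these values were 104 and 62 in siSAM68, 1550 and 2628 in siXRN2, and 432 and 974 in siCTRL. In bulk libraries, fewer cells with a transcript and less RNA per cell cannot be told apart. KHDRBS1 kept its call in siSAM68 against siCTRL under all 18 alternative settings, with a log2 change between -4.55 and -3.61.

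RPM values are rescaled as stated above, and a gene is called changed at an adjusted p under 0.05 over all genes tested. In siSAM68 against siCTRL, 8 of the 9 genes were called: SRSF1, U2AF2 and NONO rose, and KHDRBS1, PTBP1, ELAVL1, HNRNPC and PCBP1 fell. The background is high, since 58.8% of the 1938 tested genes were called, 35.3% higher and 23.4% lower. Replicates of siSAM68 and siCTRL did not overlap for 8 of the 9, and for 79.7% of all tested genes. In siXRN2 against siCTRL, 4 of the 9 were called, U2AF2 higher and ELAVL1, HNRNPC and PCBP1 lower, against 33.3% of all tested genes, with 21.2% higher and 12.1% lower. There 6 of the 9 did not overlap, against 65.7% of all. The median log2 change of the 9 genes was -0.48 in siSAM68 and -0.03 in siXRN2, against 0.16 and 0.08 over all tested genes. The siSAM68 median counts KHDRBS1, the silenced gene, and does not show a shared fall. Of the others, PTBP1, ELAVL1, HNRNPC and PCBP1 lay below 0 there and SRSF1, U2AF2, NONO and PTBP2 above 0. Without the mean-variance trend in limma, the siSAM68 calls of U2AF2, NONO, PTBP1, ELAVL1 and HNRNPC and the siXRN2 calls of U2AF2, ELAVL1 and HNRNPC were lost, and with RPM as deposited every call but that of KHDRBS1 was lost. Both comparisons use the same siCTRL libraries, so a deviation of those libraries enters both. Directly between siSAM68 and siXRN2, only KHDRBS1 among the 9 was called, where 0.155% of all tested genes passed, 0.103% being lower in siSAM68. The replicates of these 2 groups did not overlap for 7 of the 9 and for 60% of all tested genes.

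**Figure D1:**
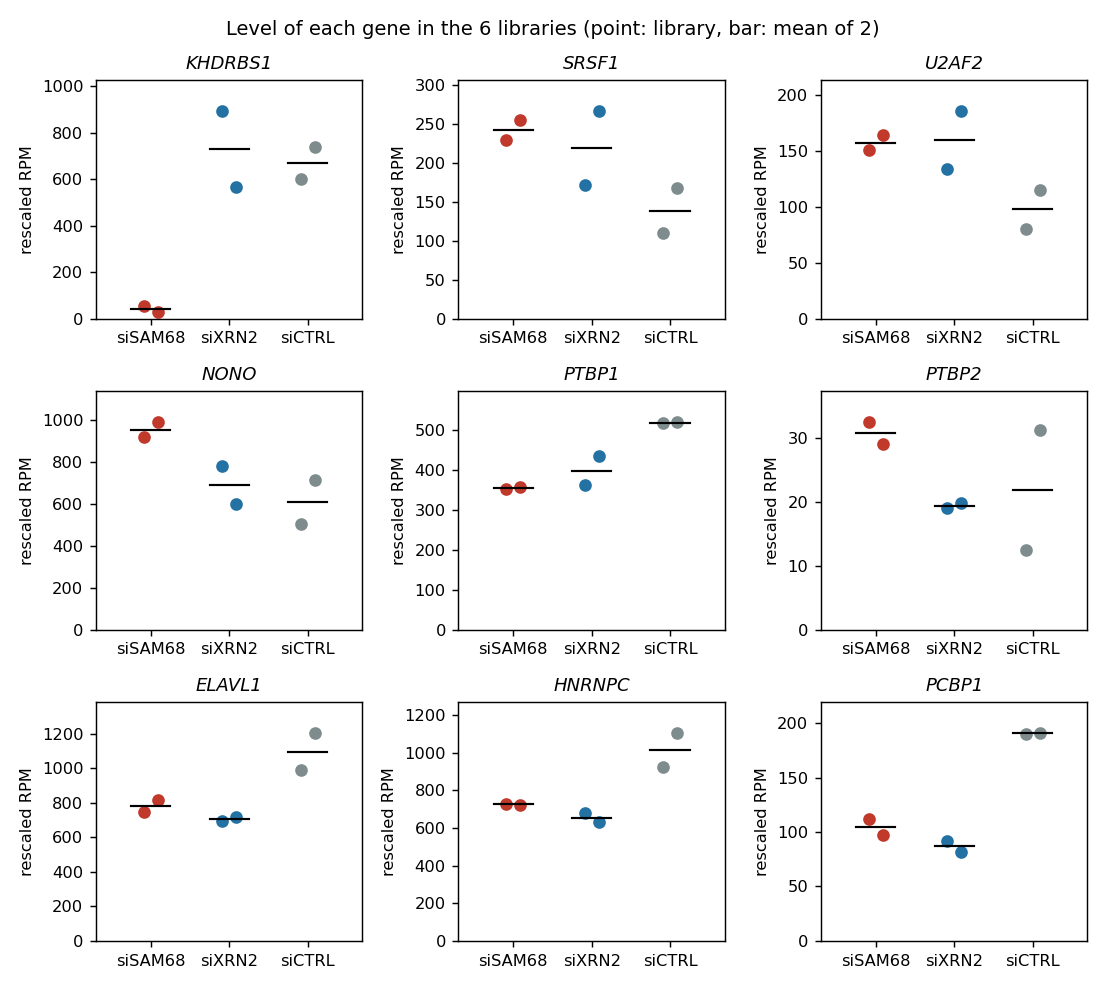
Level of each of the 9 genes in rescaled RPM (y axes from 0, own scale per gene) in the siSAM68, siXRN2 and siCTRL libraries; points are libraries and bars the mean of 2. KHDRBS1 is low in both siSAM68 libraries alone, while PCBP1, PTBP1, ELAVL1 and HNRNPC lie below siCTRL in all 4 knockdown libraries and SRSF1 and U2AF2 above it.

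**Figure D2:**
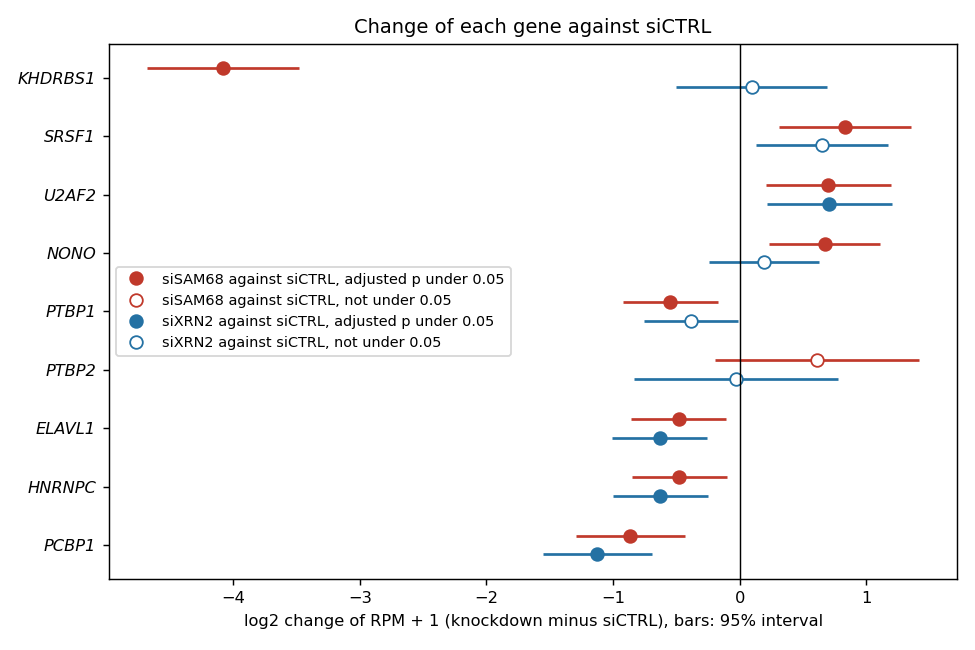
Change of each gene against siCTRL as a difference of log2(RPM + 1), with 95% intervals, for siSAM68 (upper, red) and siXRN2 (lower, blue); filled points have an adjusted p under 0.05. KHDRBS1 at -4.08 stands apart in siSAM68, and the other 8 genes lie between -1.12 and 0.83 in both knockdowns.

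Among the genes that rose, SRSF1 encodes the SR protein that binds exonic splicing enhancers and helps define exons. SRSF1 was at 230 and 255 RPM in siSAM68, 171 and 267 RPM in siXRN2, and 110 and 167 RPM in siCTRL. All 4 knockdown libraries were above both siCTRL libraries, the lower siXRN2 library by a small margin. The log2 change was 0.83 in siSAM68 (SE 0.24, adjusted p = 0.0127) and 0.65 in siXRN2 (SE 0.24, adjusted p = 0.0516), so the change passed in siSAM68 only. The test of siSAM68 against siXRN2 gave a log2 difference of 0.18 with a 95% interval of -0.35 to 0.70 (adjusted p = 0.677). The siSAM68 call was lost without siSAM68 replicate 2 and without siCTRL replicate 1. The siXRN2 difference passed under 7 of 18 alternatives, among them without siXRN2 replicate 1 and without siCTRL replicate 2.

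U2AF2 encodes the large subunit of the U2 auxiliary factor, which binds the polypyrimidine tract upstream of the 3′ splice site and recruits the U2 snRNP. U2AF2 was at 151 and 164 RPM in siSAM68, 135 and 186 RPM in siXRN2, and 80.6 and 116 RPM in siCTRL. Every knockdown library was above every siCTRL library. U2AF2 rose in both knockdowns, by 0.70 in siSAM68 (SE 0.23, adjusted p = 0.0202) and by 0.71 in siXRN2 (SE 0.23, adjusted p = 0.032) on the log2 scale. The siSAM68 call was lost without either siSAM68 replicate and without siCTRL replicate 1, and the siXRN2 call without siXRN2 replicate 2 and without siCTRL replicate 1. U2AF2 followed SRSF1 closely over the 6 libraries (r = 0.981 of log2 values, a description over libraries of 3 groups that share their scaling). Within a library U2AF2 stood at 0.658 and 0.646 times SRSF1 in siSAM68, 0.785 and 0.698 times in siXRN2, and 0.735 and 0.691 times in siCTRL.

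NONO, a DBHS-family protein of paraspeckles that takes part in transcription and splicing, was at 918 and 990 RPM in siSAM68, 779 and 600 RPM in siXRN2, and 502 and 713 RPM in siCTRL. The siSAM68 libraries were the highest 2 of the 6, and siXRN2 overlapped siCTRL. NONO rose in siSAM68 with a log2 change of 0.67 (SE 0.20, adjusted p = 0.0144), while in siXRN2 the difference was 0.19 with a 95% interval of -0.24 to 0.63 (adjusted p = 0.486). The direct test of siSAM68 against siXRN2 gave 0.48 (SE 0.20, adjusted p = 0.181). It passed only when siXRN2 replicate 1 was left out, at a log2 difference of 0.67, a setting in which 338 genes were called in place of 3. The siSAM68 call was lost without either siSAM68 replicate and without siCTRL replicate 1. In all libraries but those of siCTRL and siXRN2 replicate 2, NONO exceeded ELAVL1: the ratio was 1.22 and 1.21 in siSAM68, 1.13 and 0.836 in siXRN2, and 0.506 and 0.592 in siCTRL.

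GC content moved with the changes in siSAM68. With the 1924 tested genes that have a GC value put into 4 equal classes of transcript GC content, the median log2 change was 0.34, 0.38 and 0.22 in the lower 3 classes and -0.40 in the highest. SRSF1, with 41.2% GC, lies in the lowest class, NONO in the third and U2AF2, with 62.0% GC, in the highest. With GC content regressed out of each library, U2AF2 kept its call at 0.88 (adjusted p = 0.00812), while SRSF1 at 0.50 (adjusted p = 0.0884) and NONO at 0.46 (adjusted p = 0.0597) did not pass.

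The PTB pair encodes paralogous repressors that bind pyrimidine-rich tracts around exons. PTBP1 is the form of most tissues and PTBP2 the form enriched in neurons, and PTBP1 is known to repress PTBP2 by promoting skipping of an exon whose loss leads to decay of the transcript. PTBP1 was at 351 and 356 RPM in siSAM68, 363 and 433 RPM in siXRN2, and 516 and 519 RPM in siCTRL. All 4 knockdown libraries were below both siCTRL libraries. PTBP1 fell in siSAM68 with a log2 change of -0.55 (SE 0.18, adjusted p = 0.0177). In siXRN2 the difference was -0.38 (SE 0.18, adjusted p = 0.101) and did not pass. The direct difference between siSAM68 and siXRN2 was -0.17 with a 95% interval of -0.54 to 0.21. The siSAM68 call was lost whenever any siSAM68 or siCTRL replicate was left out, at log2 changes that stayed negative. The siXRN2 difference passed without siXRN2 replicate 2 (-0.51) and with GC content regressed out (-0.49, adjusted p = 0.0343).

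PTBP2 had the lowest mean of the 9 genes in each group, at 32.5 and 29.1 RPM in siSAM68, 19.1 and 19.8 RPM in siXRN2, and 12.4 and 31.2 RPM in siCTRL. The siCTRL values spread widely and covered siXRN2 and part of siSAM68. These rest on 63 and 66 reads in siSAM68, 33 and 92 in siXRN2, and 9 and 41 in siCTRL. No difference in PTBP2 level passed: the log2 difference was 0.61 in siSAM68 (SE 0.38, adjusted p = 0.181) and -0.03 in siXRN2 (SE 0.38, adjusted p = 0.955). Without siCTRL replicate 2 the siSAM68 difference was 1.24 and passed (adjusted p = 0.0146), and without siCTRL replicate 1 it was -0.02. The ratio of PTBP1 to PTBP2 within a library was 10.8 and 12.2 in siSAM68, 19.0 and 21.9 in siXRN2, and 41.5 and 16.6 in siCTRL. The siSAM68 ratios were the lowest, and the siCTRL ratios lay on both sides of the siXRN2 ones, the higher resting on 9 reads of PTBP2.

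ELAVL1, or HuR, binds AU-rich elements in 3′ UTRs and stabilises the transcripts that carry them. ELAVL1 was at 749 and 817 RPM in siSAM68, 692 and 718 RPM in siXRN2, and 991 and 1204 RPM in siCTRL. All 4 knockdown libraries were below both siCTRL libraries. ELAVL1 fell in both knockdowns, with a log2 change of -0.48 in siSAM68 (SE 0.18, adjusted p = 0.031) and -0.63 in siXRN2 (SE 0.18, adjusted p = 0.019).

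HNRNPC, which binds uridine tracts in introns and limits access of U2AF2 to cryptic splice sites, showed nearly the same values. It was at 729 and 722 RPM in siSAM68, 679 and 630 RPM in siXRN2, and 923 and 1105 RPM in siCTRL, again without overlap between knockdown and control libraries. HNRNPC fell by 0.48 in siSAM68 (adjusted p = 0.031) and by 0.63 in siXRN2 (adjusted p = 0.0189) on the log2 scale, each with an SE of 0.17. HNRNPC has near-identical copies elsewhere in the genome, and how reads shared with them were counted is not given in the sources used here.

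Within every library HNRNPC and ELAVL1 kept close to each other. HNRNPC over ELAVL1 was 0.973 and 0.884 in siSAM68, 0.981 and 0.878 in siXRN2, and 0.931 and 0.917 in siCTRL. Over the 6 libraries their log2 values had r = 0.976, again a description only. For both genes the siSAM68 call was lost without any 1 of the siSAM68 or siCTRL replicates, and the siXRN2 call without siCTRL replicate 2. Both lie in the second class of GC content, and with GC content regressed out both stayed called in siSAM68, ELAVL1 at -0.79 and HNRNPC at -0.81.

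PCBP1 encodes a KH-domain protein that binds C-rich RNA and acts in splicing, stability and translation. It was at 112 and 97.2 RPM in siSAM68, 92.2 and 82.0 RPM in siXRN2, and 190.3 and 190.9 RPM in siCTRL. The knockdown libraries were all below siCTRL by a wide margin, and the siCTRL replicates were nearly equal. PCBP1 fell in siSAM68 with a log2 change of -0.86 (SE 0.20, adjusted p = 0.00583) and in siXRN2 with -1.12 (SE 0.20, adjusted p = 0.00735). As a ratio of means, PCBP1 was 1.82-fold lower in siSAM68 and 2.19-fold lower in siXRN2 than in siCTRL. It had the lowest adjusted p of the 9 in siXRN2 and, after KHDRBS1, in siSAM68. The siXRN2 call was kept whichever library was left out, and the siSAM68 call was lost without siSAM68 replicate 2 alone. Directly between siSAM68 and siXRN2 the log2 difference was 0.26 with a 95% interval of -0.17 to 0.69 (adjusted p = 0.441).

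Since 3′READS gives 1 read per transcript end, RPM levels can be set side by side without a length term. By mean level the order in siSAM68 was NONO (954 RPM), ELAVL1 (783 RPM), HNRNPC (726 RPM), PTBP1 (354 RPM), SRSF1 (242 RPM), U2AF2 (158 RPM), PCBP1 (105 RPM), KHDRBS1 (40.6 RPM) and PTBP2 (30.8 RPM). Of these neighbours only KHDRBS1 and PTBP2 overlapped between replicates. In siXRN2 the order was KHDRBS1 (731 RPM), ELAVL1 (705 RPM), NONO (689.7 RPM), HNRNPC (655 RPM), PTBP1 (398 RPM), SRSF1 (219 RPM), U2AF2 (160.3 RPM), PCBP1 (87.1 RPM) and PTBP2 (19.4 RPM). Neighbours among its highest 4 overlapped, as did SRSF1 and U2AF2. In siCTRL it was ELAVL1 (1098 RPM), HNRNPC (1014 RPM), KHDRBS1 (671 RPM), NONO (607 RPM), PTBP1 (518 RPM), PCBP1 (191 RPM), SRSF1 (138 RPM), U2AF2 (98.1 RPM) and PTBP2 (21.8 RPM). There ELAVL1 and HNRNPC overlapped, as did KHDRBS1 and NONO, NONO and PTBP1, and SRSF1 and U2AF2. PCBP1 thus stood above SRSF1 in both siCTRL libraries and below it in all 4 knockdown libraries, with SRSF1 over PCBP1 at 2.05 and 2.62 in siSAM68, 1.86 and 3.25 in siXRN2, and 0.577 and 0.876 in siCTRL.

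The site table adds where SRSF1, PTBP2 and PCBP1 transcripts ended. Of their 5 listed sites 2 were called in siSAM68 against siCTRL, where 14.6% of tested sites passed, 8.68% higher and 5.96% lower. Replicates did not overlap at 5 of the 5 sites and at 76.2% of all. In siXRN2 against siCTRL limma called 0 of the 5, where 5.19% of tested sites passed, 3.79% higher and 1.4% lower, and 3 of the 5 had an unadjusted p under 0.05, as had 1875 of all 4860. Again 5 of 5 did not overlap, against 71.1% of all. In the direct test of siSAM68 against siXRN2 limma called 0 of the sites of any gene, 0% of those tested, with 1 of the 5 and 642 of all sites at an unadjusted p under 0.05. There 3 of the 5 did not overlap, against 52.2% of all. Usage is the percent of a gene's reads at a site in that library, tested as log2(percent + 1).

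At the SRSF1 middle site (hg19 position 56080854, chromosome 17, minus strand), the AATAAA end printed above, usage was 82.0% and 80.4% in siSAM68, 69.7% and 85.3% in siXRN2, and 26.6% and 57.7% in siCTRL. All 4 knockdown libraries were above both siCTRL libraries, which differed widely from each other. The log2 difference was 1.03 in siSAM68 (SE 0.37, adjusted p = 0.0904) and 0.96 in siXRN2 (SE 0.37, adjusted p = 0.128), and neither passed. Both passed without siCTRL replicate 2, the siCTRL library closer to the knockdowns. The lower siCTRL value rests on about 21 of 79 reads, with an exact binomial 95% interval of 17.3% to 37.7%. The other, with about 127 of 220 reads, has an interval of 50.9% to 64.3%. Such intervals cover counting error only.

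The SRSF1 first site (hg19 position 56082363), which lies 1509 bases upstream and has no annotated signal, had the opposite order. Its usage was 1.80% and 2.6% in siSAM68, 4.38% and 2.67% in siXRN2, and 11.4% and 10% in siCTRL, with no overlap between knockdown and control. The log2 difference of -1.88 in siSAM68 fell just short of the threshold (SE 0.44, adjusted p = 0.052), as did -1.39 in siXRN2 by more (SE 0.44, adjusted p = 0.0995). In siSAM68 it passed with a pseudocount of 5 percentage points and when percentage points were tested directly. The rest of the SRSF1 reads, at sites that are not in the table, made up 16.2% and 17.0% in siSAM68, 25.9% and 12.1% in siXRN2, and 62.0% and 32.3% in siCTRL.

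Multiplying usage by level places the higher SRSF1 signal at the middle site. Its product was 188 and 205 RPM in siSAM68, 119 and 227 RPM in siXRN2, and 29.2 and 96.5 RPM in siCTRL. The first site held 4.13 and 6.62 RPM in siSAM68, 7.50 and 7.12 RPM in siXRN2, and 12.5 and 16.7 RPM in siCTRL. Sites not listed held 37.2 and 43.3 RPM in siSAM68, 44.4 and 32.1 RPM in siXRN2, and 68.1 and 54.0 RPM in siCTRL. The middle site was thus higher in every knockdown library than in either siCTRL library, while the first site and the unlisted sites were lower in every one. These products were not tested, since they combine both tables.

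**Figure D3:**
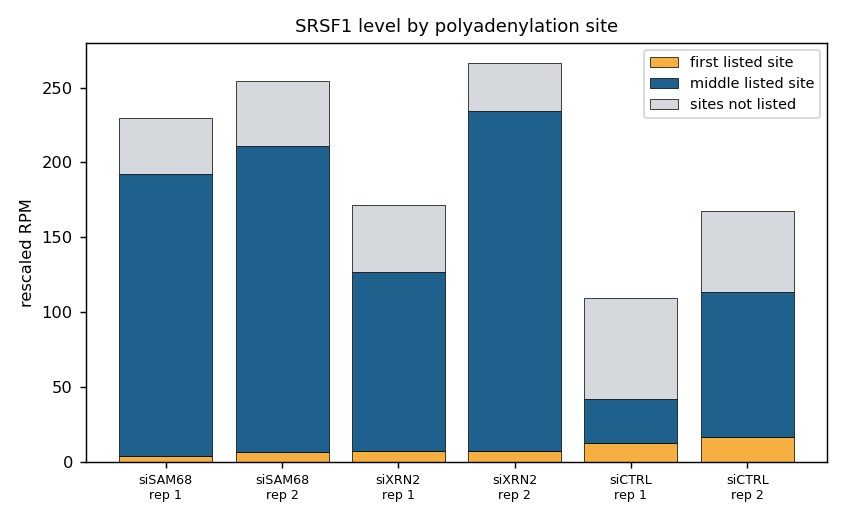
SRSF1 level in rescaled RPM (y axis from 0) per library, split into the first listed site, the middle listed site and sites not in the table; single libraries of siSAM68, siXRN2 and siCTRL are shown, without error bars. The middle site holds 119 to 227 RPM in the knockdown libraries and 29.2 and 96.5 RPM in siCTRL.

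PTBP2 has its 2 listed sites 233 bases apart on chromosome 1. At the middle site (hg19 position 97280349), which carries ATTAAA, usage was 100% and 98.5% in siSAM68, 97.0% and 93.3% in siXRN2, and 88.9% and 85.4% in siCTRL. At the first site (hg19 position 97280116), which carries AATAAA, usage was 0% and 1.54% in siSAM68, 3.03% and 6.67% in siXRN2, and 11.1% and 12.2% in siCTRL. The groups did not overlap at either site, and siXRN2 lay between siSAM68 and siCTRL. In siSAM68 the middle site was called higher (log2 difference 0.19, SE 0.04, adjusted p = 0.0496) and the first site lower (-2.99, SE 0.66, adjusted p = 0.0477). Both share 1 total, so they are a single change seen from its 2 ends. Neither passed in siXRN2, at 0.13 (adjusted p = 0.108) and -1.19 (adjusted p = 0.222).

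Few reads lie behind this. At the PTBP2 first site siSAM68 had 0 of 63 and about 1 of 66 reads, siXRN2 1 of 33 and about 6 of 92, and siCTRL 1 of 9 and 5 of 41. The 0 of 63 allows a share of up to 4.76% by the rule of 3 counts of the total, or 5.69% as the upper end of the exact 95% interval, and the exact 95% interval of the siCTRL library with 9 reads runs from 0.281% to 48.3%. Leaving out any 1 of the 6 libraries ended the call at the middle site in every case and at the first site in every case, and over all 12 alternatives the middle site passed in 2 and the first site in 3.

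PCBP1 has 1 listed site, the first (hg19 position 70316255, chromosome 2, plus strand), with the AATAAA end printed above. Its usage was 23.0% and 15.9% in siSAM68, 18.8% and 25.3% in siXRN2, and 13.9% and 12.3% in siCTRL. The knockdown libraries were all above siCTRL, but no test passed, with log2 differences of 0.52 in siSAM68 (SE 0.34, adjusted p = 0.262) and 0.69 in siXRN2 (SE 0.34, adjusted p = 0.186). Usage times level gave 25.8 and 15.5 RPM at this site in siSAM68, 17.3 and 20.7 RPM in siXRN2, and 26.4 and 23.6 RPM in siCTRL. The PCBP1 ends at other sites summed to 86.3 and 81.7 RPM in siSAM68, 75.0 and 61.3 RPM in siXRN2, and 164 and 167 RPM in siCTRL. The lower PCBP1 level therefore lay mostly in transcripts that ended at the other sites, without overlap between knockdown and control there and with overlap for siSAM68 at the first site.

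**Figure D4:**
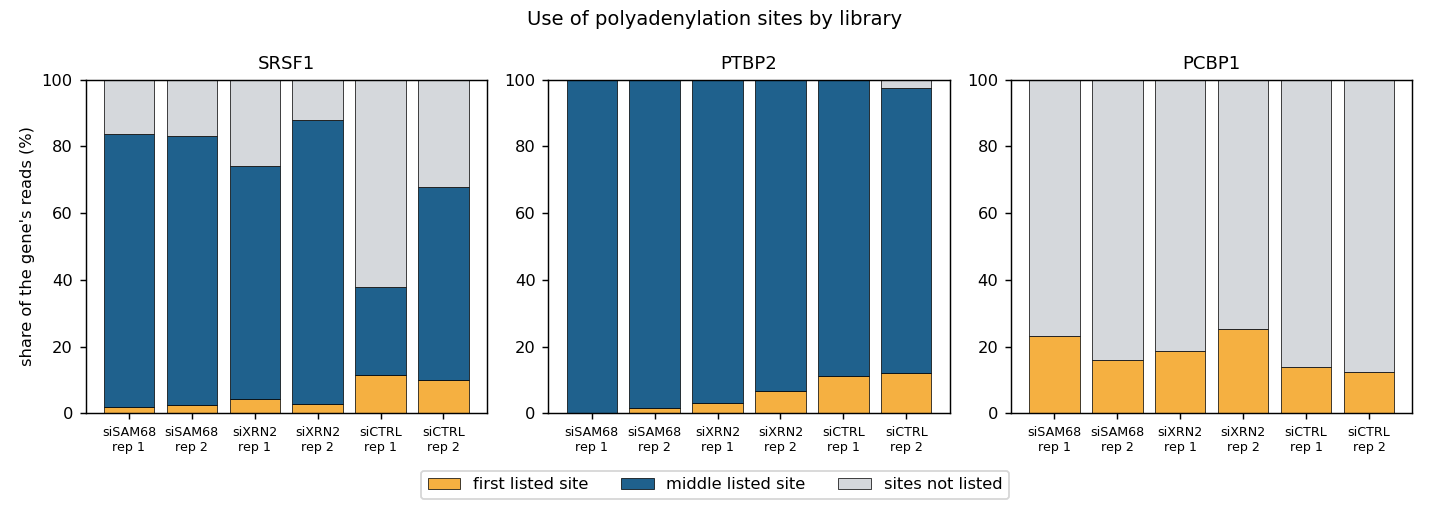
Share of reads (percent of the gene's reads, y axes 0 to 100) at the first listed site, the middle listed site and sites not in the table for SRSF1, PTBP2 and PCBP1 in each library of siSAM68, siXRN2 and siCTRL. The SRSF1 middle site holds 69.7% to 85.3% in the knockdown libraries and 26.6% and 57.7% in siCTRL, and the PTBP2 first site holds 0% and 1.54% in siSAM68 and 11.1% and 12.2% in siCTRL.

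Beyond the 9 genes, 135 further splicing and stability regulators were searched, of which 19 are in the gene table. In siSAM68 against siCTRL, 11 of the 19 were called, in total near the 58.8% called among all tested genes. By direction 5 were higher and 6 lower, while over all tested genes 35.3% were higher and 23.4% lower. The median log2 change was -0.35 against 0.16 over all tested genes. The 5 that rose were PABPC4 (1.36, a cytoplasmic poly(A)-binding protein), ANKHD1 (1.36, which has ankyrin repeats and a KH domain), FUBP3 (0.95, a KH-domain protein), HNRNPR (0.89) and HNRNPA0 (0.71), all as log2 changes. PABPC4 averaged 179 ± 2.19 RPM in siSAM68 and 72.5 ± 31.8 RPM in siCTRL (SD, n = 2 each). Reads of ANKHD1 may include those of a readthrough transcript with its neighbour.

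The 5 largest falls in siSAM68 were CELF1 (-0.72, a GU-rich element binding protein of splicing and decay), HNRNPUL2 (-0.63), PUF60 (-0.60, a poly(U)-binding splicing factor), ESRP2 (-0.55, a regulator of epithelial splicing) and SF1 (-0.45, the branch point binding protein). CELF1 averaged 176 ± 0.681 RPM in siSAM68 and 291 ± 19.1 RPM in siCTRL (SD, n = 2 each). Of the 10 genes named for siSAM68, PABPC4 was called whichever library was left out, 2 were called without siSAM68 replicate 2 and 1 without siSAM68 replicate 1. With siCTRL replicate 1 left out 3 were called, and with siCTRL replicate 2 left out 7.

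In siXRN2 against siCTRL, 7 of the 19 were called, in total near the 33.3% called among all tested genes. By direction 1 was higher and 6 lower, while over all tested genes 21.2% were higher and 12.1% lower. This reversed split was not tested. The median log2 change was -0.20 against 0.08 over all tested genes. HNRNPA0 rose (0.64). Among the largest falls were ZFP36L2 (-0.95, which promotes decay of transcripts with AU-rich elements), LUC7L3 (-0.67, a U1-associated splicing factor), CELF1 (-0.66) and SF1 (-0.66). SF1 averaged 549 ± 77.1 RPM in siXRN2 and 867 ± 88.5 RPM in siCTRL (SD, n = 2 each). All of these 5 calls were lost without siCTRL replicate 1, while 1 was kept without siCTRL replicate 2, and 2 were kept without siXRN2 replicate 2. In the direct comparison of siSAM68 with siXRN2, limma called 0 of the 19, where 0.155% of all tested genes passed, and 5 of the 19 had an unadjusted p under 0.05, as had 444 of all 1938.

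The counts by family, with the 9 genes included, stand against 58.8% of all tested genes called in siSAM68 and 33.3% in siXRN2. Among them, 8 hnRNP genes of 32 searched were listed, of which 2 rose and 4 fell in siSAM68 and 1 rose and 2 fell in siXRN2. Of 7 listed genes for splice site recognition, 1 rose and 3 fell in siSAM68, and 1 rose and 3 fell in siXRN2. U2AF2 was the 1 that rose in both. Of 6 listed AU-rich element and stability genes, 1 rose and 1 fell in siSAM68 and 3 fell in siXRN2. Of 5 listed STAR and KH-domain genes, 2 rose and 3 fell in siSAM68 and 2 fell in siXRN2. The 3 falls in siSAM68 include KHDRBS1, the silenced gene. The families overlap, so a gene such as PCBP1 counts in more than 1 of them. Both listed tissue-type splicing regulators fell in siSAM68, and 1 of them in siXRN2. SRSF1 was the only listed gene among 22 SR and SR-related genes searched, and NONO the only one among 8 DBHS and paraspeckle genes.

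In the site table, 56 sites of 32 of these further regulators are listed. In siSAM68 against siCTRL 5 of the 56 were called, named here after their values were seen, where 14.6% of all tested sites passed. In siXRN2 against siCTRL limma called 0 of the 56, where 5.19% of all passed, with 18 of the 56 and 1875 of all 4860 tested sites at an unadjusted p under 0.05. SRSF4, an SR protein, used its middle site at 23.5% and 28.6% in siSAM68, 22.2% and 31.2% in siXRN2, and 6.90% and 2.86% in siCTRL. SRSF10, an SR-related splicing regulator, used its middle site at 11.4% and 6.76% in siSAM68, 2.17% and 3.42% in siXRN2, and 0% in both siCTRL libraries. PUM2, a Pumilio protein, used its first site at 7.37% and 4.35% in siSAM68, 2.25% and 6.10% in siXRN2, and 0% in both siCTRL libraries. PARN, a deadenylase, used its last site at 16.7% and 20% in siSAM68, 58.3% and 70.6% in siXRN2, and 63.6% and 46.7% in siCTRL. CPEB2, a cytoplasmic polyadenylation element binding protein, used its last site at 88.9% and 86.7% in siSAM68, 96.3% and 95% in siXRN2, and 100% in both siCTRL libraries. The SRSF4 and CPEB2 calls were lost whichever of the 6 libraries was left out, the PARN and PUM2 calls in 5 of 6 cases and the SRSF10 call in 3 of 6. The reads of these 5 genes were not recovered, so their depth is not given. Shares such as the 16.7% and 20% of PARN can arise from a few reads, so these calls may rest on few reads.

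Finally, the genes whose pattern over the 6 libraries was most like that of KHDRBS1 were sought among 1072 genes that span at least 1 log2 unit. The 5 with the highest Pearson correlation were ZNFX1 (r = 0.989), KLKP1 (0.980), NUDT18 (0.974), PGLS (0.949) and TMEM41A (0.947). These coefficients are over 6 libraries of 3 groups and are set mainly by the low siSAM68 pair. ZNFX1, which encodes an NFX1-type zinc finger protein, was at 11.3 and 9.65 RPM in siSAM68, 35.3 and 30.9 RPM in siXRN2, and 26.3 and 28.2 RPM in siCTRL. TMEM41A, a transmembrane protein gene, was at 29.5 and 30.4 RPM in siSAM68, 64.7 and 77.5 RPM in siXRN2, and 86.3 and 78.3 RPM in siCTRL. KLKP1, a kallikrein pseudogene, was at 25.8 and 27.5 RPM in siSAM68, 57.0 and 53.4 RPM in siXRN2, and 55.7 and 57.1 RPM in siCTRL, and may share reads with its relatives. In each of these 3 genes both siSAM68 libraries lay below the other 4, with a smaller distance than for KHDRBS1 itself.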

How the data were processed

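3′READS libraries of LNCaP cells were analysed in 3 groups of 2 biological replicates. Per the submitters' processing notes, cutadapt, Bowtie2 and hg19 were used; their versions, the annotation and the handling of reads with several matches are not given in the sources used. Deposited by the authors were a gene table in RPM (depth-normalised reads, 1 decimal, relative to the pooled reads of a group's libraries, as the value steps show) and a site table of percent usage of a gene's reads per library. The authors' deposited score and log2 ratio per comparison (coded control minus knockdown) come without a definition and served only to describe how the lists were selected.

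Libraries were brought to 1 total per group, the summed RPM of the listed genes over that group's pair of libraries. Steps of 0.238 (siSAM68), 0.157 (siXRN2) and 0.492 RPM (siCTRL) per read gave approximate reads, which describe depth only; no count test was run, although the plan had named one in case the table held counts. Genes averaging 1 RPM or more (1938) were tested as log2(RPM + 1) and sites averaging 1% usage or more as log2(percent + 1), in limma 3.58.1 (R 4.3.3) with a mean-variance trend, all groups in 1 fit and Benjamini-Hochberg adjustment over all listed features tested. Fold changes on this scale understate the change of low genes. The procedure was tested on simulated data that had no shift with GC content, so this does not give its error rate in these data. Exact binomial intervals came from SciPy 1.17.1 and figures from matplotlib 3.10.9. Site reads are usage times gene reads, which came out whole for 91.9% of 5078 values within 0.0051 percentage points.

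The 9 genes and the lists were chosen with earlier results of these data known. Named are all 9, their listed sites, per comparison with siCTRL up to 5 other regulators with the largest rise and fall among those called, and the 5 genes most correlated with KHDRBS1. Of the genes this rule names, 1 is not reported here. Alternatives were other pseudocounts, filters, scalings and fits, each library left out, a replicate block and, chosen after seeing the data, GC content regressed out.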

Additional observations from a re-analysis of the deposited data

How the results depend on the processing

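With RPM as deposited, not rescaled for depth within a group, 1 gene was called in siSAM68 against siCTRL (1 of the 9, KHDRBS1), 0 genes and 0 of the 9 in siXRN2 against siCTRL, and 1 in siSAM68 against siXRN2. Without the mean-variance trend 3 of the 9 were called in siSAM68 and 1 in siXRN2 (364 genes), and 1 gene in siSAM68 against siXRN2. That direct comparison, with 3 genes called, gave 9 with a pseudocount of 5 RPM, 1 with 0.5 RPM, 9 at a mean of at least 10 RPM, 30 with median-of-ratios scaling and 8 with upper-quartile scaling. Median-of-ratios scaling, which puts the median change of all genes in siSAM68 at 0.0027 in place of 0.16, split the siSAM68 calls into 527 higher and 546 lower in place of 685 and 454, and the siXRN2 calls into 344 and 303 in place of 411 and 235. GC correction split them into 478 and 472, and 339 and 313. The cause of these differences was not tested.

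With 1 library left out, calls ranged from 348 to 1245 genes and from 1 to 8 of the 9 in siSAM68 against siCTRL, from 199 to 712 genes and from 3 to 5 of the 9 in siXRN2 against siCTRL, and from 1 to 338 genes and from 1 to 2 of the 9 in siSAM68 against siXRN2. Only KHDRBS1 of the 9 was called without siSAM68 replicate 2, 3 without siSAM68 replicate 1, 2 without siCTRL replicate 1 and 6 without siCTRL replicate 2; a group left with 1 library was assumed to vary like the others. Sites called ranged from 0 to 812 in siSAM68 and from 0 to 371 in siXRN2 against siCTRL, and of the 5 sites from 0 to 1 in both.

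Other settings moved the site counts too. Testing percentage points gave 24 sites in siXRN2 and 2 in siSAM68 against siXRN2, a pseudocount of 5 percentage points gave 3 there, and fitting only the groups compared gave 358 sites in siSAM68, 0 in siXRN2 and 0 of the 5. Of the 5 sites, 1 was called in siSAM68 with no filter on low usage and 0 at a mean usage of at least 5%.

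Samples with the same replicate number deviated together with correlations of 0.181, 0.0763 and 0.00234, so the numbers were not taken as pairs. With a replicate block 1142, 653 and 1 genes were called in siSAM68 against siCTRL, siXRN2 against siCTRL and siSAM68 against siXRN2, with 8, 5 and 1 of the 9; SRSF1 passed in siXRN2 (adjusted p = 0.0242). The block left 113 sites in siSAM68, 0 in siXRN2 and 0 of the 5.

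Some differences that were not called in the main fit changed sign under other settings. KHDRBS1 in siXRN2 against siCTRL was -0.0091 with RPM as deposited, -0.066 with GC correction and between -0.23 and 0.42 with 1 library left out; the same range was -0.059 to 0.45 for NONO and -0.66 to 0.60 for PTBP2 (0.052 with GC correction), and -0.021 to 1.24 for PTBP2 in siSAM68. In siSAM68 against siXRN2 U2AF2 was 0.15 as deposited, 0.23 with GC correction and between -0.24 and 0.23 with 1 library left out, and SRSF1 -0.11 with GC correction and between -0.14 and 0.49. There GC correction gave 0.024 for PTBP1, -0.018 for ELAVL1 and -0.084 for HNRNPC, and leaving out 1 library gave -0.070 to 0.22 for the SRSF1 middle site and -0.43 to 0.078 for the PCBP1 first site.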
